A study of Mus musculus with 11 samples.

Results

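Toll-like receptors (TLRs) and the 2 adaptors that carry their signal were examined in the epidermis of mice with and without Langerhans cells (LCs). The group was set by gene symbol and held 10 of the 52550 genes in the table, namely Tlr1, Tlr2, Tlr3, Tlr4, Tlr5, Tlr6, Tlr7, Tlr9, Myd88 and Ticam1. RNA-seq was done on keratinocytes (KCs) and dendritic epidermal T cells (DETCs) sorted from flank epidermis of 8-week-old female mice. The mice were huLangerin-DTA animals (LC-/-) or their wild-type (WT) littermates. The data comprised 3 WT KC, 3 LC-/- KC, 3 WT DETC and 2 LC-/- DETC libraries, 11 in all, and the LC-/- DETC libraries carry replicate numbers 2 and 3. In LC-/- mice diphtheria toxin subunit A is driven by the human langerin promoter and removes LCs from birth on, so the comparison is of lifelong absence and not of acute loss. KCs were sorted as live MHC-II-, CD45-, langerin-, c-kit- cells and DETCs as live MHC-II-, CD45+, langerin-, c-kit- cells. Both gates were set by what the cells lacked or by CD45, so other cells of that phenotype could enter them.

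TLRs sense microbial and damage-derived molecules. TLR1, TLR2, TLR4, TLR5 and TLR6 sit at the cell surface and bind lipopeptides, lipopolysaccharide or flagellin, whereas TLR3, TLR7 and TLR9 sit in endosomes and bind nucleic acids. MyD88 is the adaptor of every TLR except TLR3, which signals through TRIF, the product of Ticam1, and TLR4 uses both. In skin, KCs form the first barrier that meets these ligands, and DETCs are gamma delta T cells that live between them.

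Depth was 13491075 to 19750440 reads on genes per library, and 3 reads were worth 2.48 to 3.32 normalized counts. This value was taken as the limit for a library with 0 reads. A fold given as at least a value is the mean of the higher group over this limit, with no interval on that mean. The labels matched their markers. Of 22 DETC markers, 22 were higher in WT DETCs than in WT KCs, and 23 of 24 keratinocyte markers were lower. Cd207, the gene of langerin, had 6 to 29 reads in the WT KC libraries and 0 in the LC-/- ones, so it was at least 5.11-fold higher in WT. The DETC libraries also held keratinocyte transcripts. The median of the 24 keratinocyte markers stood at 15.8% to 25.9% of the KC level, and this keratinocyte share was highest in LC-/- DETC replicate 2. Single markers spread widely about this median. In WT, the mean of Krt1 was 21185 normalized counts in KCs and 1974 in DETCs, and that of Cdh1 was 24887 and 13727. Lor had a mean of 665 in WT KCs and 1138 in WT DETCs. In bulk samples such as these, fewer cells of a type and less RNA per cell cannot be told apart.

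The stretches before the RefSeq starts are shown for 5 members. Tlr2 and Tlr3 carry a match to the NF-kB consensus, Myd88 carries a match to the core of the interferon-stimulated response element, Ticam1 was the member called between genotypes, and Tlr1 is one of the receptors read in DETCs and not in KCs. Each is the 250 bases before the RefSeq start on the coding strand (GRCm38.p6), and capitals mark a match. The gene spans given below are from GENCODE and begin elsewhere. The Myd88 and Tlr3 windows lie wholly inside these spans, and the Tlr2, Ticam1 and Tlr1 windows partly inside.
Tlr2 (chr3:83841609-83841858, minus strand): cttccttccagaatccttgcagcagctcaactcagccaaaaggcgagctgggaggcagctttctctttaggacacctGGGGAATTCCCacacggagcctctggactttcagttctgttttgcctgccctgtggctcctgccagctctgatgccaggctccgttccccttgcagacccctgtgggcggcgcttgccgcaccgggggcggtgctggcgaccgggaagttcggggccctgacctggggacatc
Tlr3 (chr8:45410381-45410630, minus strand): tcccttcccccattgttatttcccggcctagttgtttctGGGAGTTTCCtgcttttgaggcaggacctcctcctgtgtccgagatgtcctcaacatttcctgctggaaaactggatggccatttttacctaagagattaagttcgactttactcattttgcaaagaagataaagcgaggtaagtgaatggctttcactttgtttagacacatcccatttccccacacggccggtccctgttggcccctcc
Myd88 (chr9:119340019-119340268, minus strand): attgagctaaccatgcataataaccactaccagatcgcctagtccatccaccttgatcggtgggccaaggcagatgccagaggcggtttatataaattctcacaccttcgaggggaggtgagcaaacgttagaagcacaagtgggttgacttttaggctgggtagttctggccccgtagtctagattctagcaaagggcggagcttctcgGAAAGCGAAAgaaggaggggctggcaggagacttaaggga
Ticam1 (chr17:56276768-56277017, minus strand): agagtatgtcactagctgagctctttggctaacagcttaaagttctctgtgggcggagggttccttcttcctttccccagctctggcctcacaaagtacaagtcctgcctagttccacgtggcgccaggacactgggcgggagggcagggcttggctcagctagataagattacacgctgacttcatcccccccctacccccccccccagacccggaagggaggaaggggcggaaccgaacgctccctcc
Tlr1 (chr5:64933559-64933808, minus strand): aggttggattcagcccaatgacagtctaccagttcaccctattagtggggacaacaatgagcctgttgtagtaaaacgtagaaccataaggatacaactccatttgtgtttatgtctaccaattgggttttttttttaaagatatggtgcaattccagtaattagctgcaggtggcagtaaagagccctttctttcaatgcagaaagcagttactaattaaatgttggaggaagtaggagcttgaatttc
The 4 motifs below were searched on both strands in 10 windows of 8 members, and the same search was run over 32851 windows of all genes. The NF-kB consensus was in 3.90% of all windows. It matched Tlr2 in 2 overlapping frames, which begin 173 and 172 bases before the start, and Tlr3 at 211 bases before it. The interferon-stimulated response element core (GAAA, any 2 bases, GAAA) was in 2.98% of all windows and matched Myd88 at 40 bases, and it matched 1 of the 2 Tlr6 windows at 116 and 110 bases, in the 1 window of the 10 whose start was not found in a GENCODE transcript. The AP-1 motif TGANTCA was in 6.75% and matched Tlr9 at 58 bases. The GAS motif (TTCC, any base, GGAA) was in 0.913% and matched no member window. Tlr1, Tlr5 and Ticam1 held none of these letters. Tlr4 and Tlr7 had no window.

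The adaptors had more reads per kb of exon than any receptor in all 4 groups. In WT KCs the mean was 565 normalized counts per kb for Myd88 and 119 for Ticam1. Tlr3 followed at 34.8, Tlr5 at 11.8 and Tlr2 at 7.11, and the libraries of each of these genes did not overlap with those of the next. Tlr4 at 0.570 per kb and Tlr6 at 0.0773 per kb came next, with overlapping ranges, and Tlr1, Tlr7 and Tlr9 had no reads. In LC-/- KCs the order of the first 5 was the same, but the ranges of Tlr5 and Tlr2 overlapped. In WT DETCs the mean was 276 normalized counts per kb for Myd88 and 63.4 for Ticam1. The receptors there were led by Tlr7 at 7.41, Tlr3 at 6.82 and Tlr1 at 5.80 per kb, whose ranges overlapped. Tlr2 at 2.61 and Tlr5 at 2.17 also overlapped, and Tlr6 at 1.18 overlapped with Tlr5. In LC-/- DETCs Tlr7 was the first receptor at 9.99 per kb, with no overlap with Tlr3 at 5.64.

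**Figure D1:**
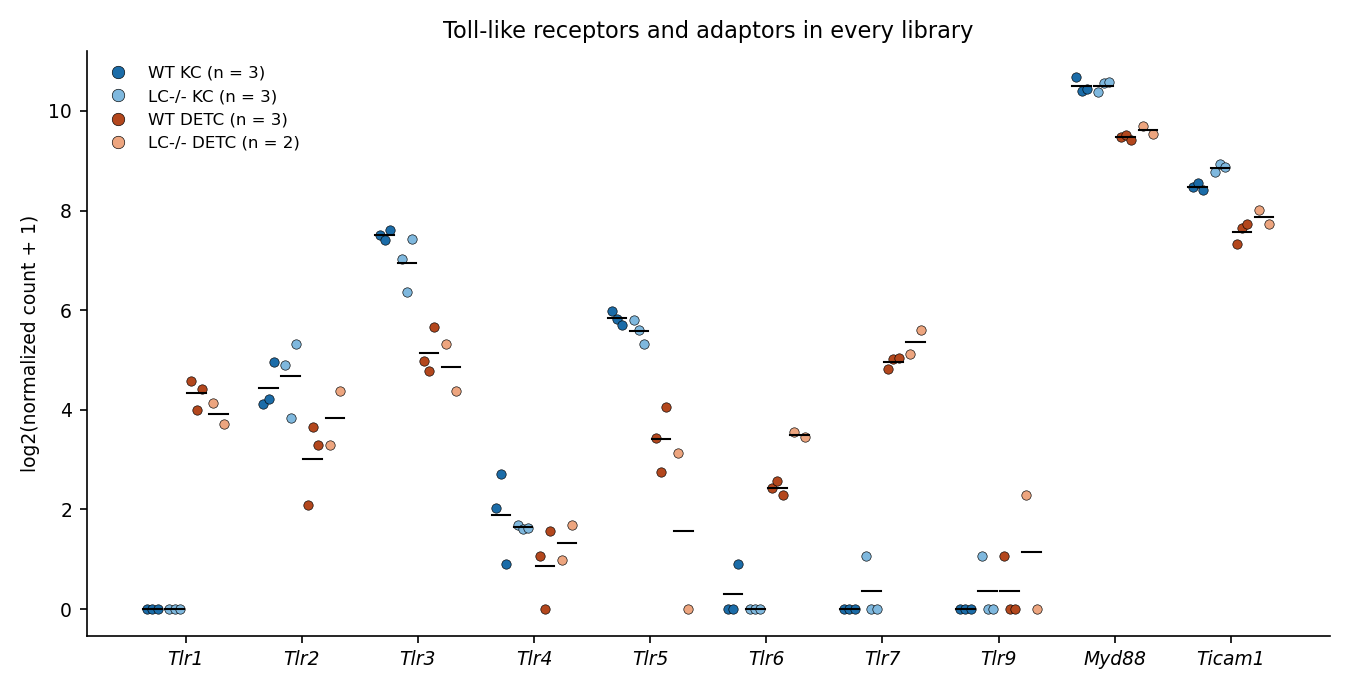
Values of the 10 genes in every library, as log2 of the normalized count plus 1 (points) with the mean of each group (bars). Tlr1 and Tlr7 are at 0 or 1 read in the KC libraries and at 11 to 43 reads in the DETC libraries, whereas Tlr3, Tlr5, Myd88 and Ticam1 are higher in every KC library than in any DETC library.

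Which receptors each population carries was asked by comparing DETCs with KCs, once in WT and once in LC-/- libraries, which share no sample. Of the 10 genes, 7 passed the filter on low values, and Tlr4, Tlr6 and Tlr9 did not. Tlr1 and Tlr7 passed through their DETC values, so their calls follow in part from the filter. In WT, 2 of the 7 were called higher in DETCs, where 41.0% of all 14419 tested genes were, and 5 were called lower, where 35.1% of all tested genes were. In LC-/-, 2 were called higher (38.1% of all tested genes) and 4 lower (32.1% of all tested genes). With shares this large among all genes, the counts say little about TLRs as a group, and the values of each gene follow.

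**Figure D2:**
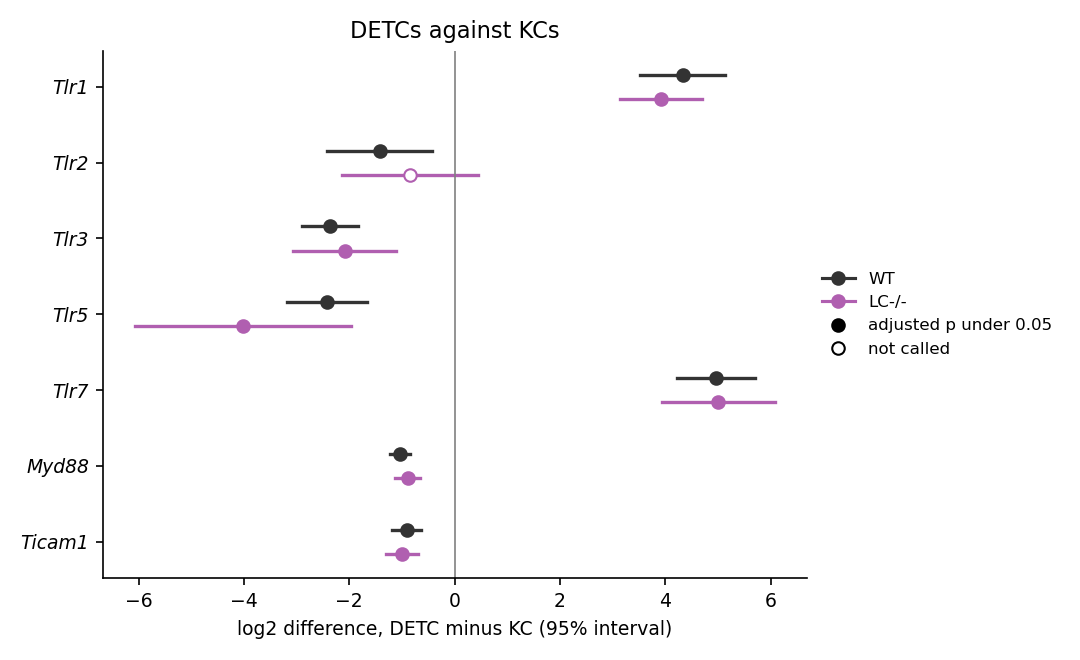
Log2 difference between DETCs and KCs for the 7 tested genes in WT (black) and LC-/- (purple) libraries, with 95% intervals from limma. Filled points have an adjusted p under 0.05. Tlr1 and Tlr7 lie to the right, and the other 5 lie to the left in both genotypes, with Tlr2 in LC-/- not called.

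Among the cell-surface receptors, Tlr1 encodes the partner of TLR2 for triacylated lipopeptides (chr5:64924679-64933563, minus strand). It had 0 reads in all 6 KC libraries. It stood at 22.9, 14.9 and 20.4 normalized counts in WT DETC replicates 1 to 3 and at 16.5 and 12.2 in LC-/- DETC replicates 2 and 3. The groups did not overlap, and Tlr1 was at least 6.89-fold higher in DETCs of WT and at least 4.52-fold higher in DETCs of LC-/- mice.

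Tlr6 encodes the other partner of TLR2, for diacylated lipopeptides, and lies beside Tlr1 (chr5:64952031-64960097, minus strand). It had 1 read in the 6 KC libraries together. Its normalized counts were 4.36, 4.95 and 3.89 in the WT DETC libraries and 10.7 and 9.95 in the LC-/- DETC libraries. The ratio of DETCs to KCs in WT rested on 14 reads against 1 and was 14.2, with a 95% counting interval from 2.17 to 602. In LC-/- it was at least 3.25-fold. Both LC-/- DETC libraries lay above the 3 WT ones, but Tlr6 did not pass the filter, and its counts were 4 to 6 reads in WT and 9 to 11 in LC-/-. The Tlr1 and Tlr6 transcripts share 340 stretches of 75 bases, which is 10.3% of those in Tlr1 and 9.25% of those in Tlr6, so a part of their reads could be assigned to either or to none.

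Tlr2, the shared subunit of both pairs (chr3:83836272-83841767, minus strand), was read in all libraries. It stood at 16.4, 17.6 and 30.3 normalized counts in WT KCs, at 28.6, 13.2 and 38.9 in LC-/- KCs, at 3.27, 11.6 and 8.75 in WT DETCs and at 8.74 and 19.9 in LC-/- DETCs. The groups did not overlap in WT but overlapped in LC-/-. On the log2(normalized count + 1) scale, the difference between DETCs and KCs was -1.42 (SE 0.44, adjusted p = 0.0154) in WT, and -0.84 (SE 0.54, adjusted p = 0.20) in LC-/-. Without WT KC replicate 3 the WT call was lost (-1.16, adjusted p = 0.0717).

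Tlr5, the receptor of flagellin (chr1:182954788-182976044, plus strand), stood at 62.5, 55.7 and 51.0 normalized counts in WT KCs and at 55.1, 47.8 and 38.9 in LC-/- KCs. In DETCs it stood at 9.82, 5.78 and 15.6 in WT and at 7.77 and 0 in LC-/-. The populations did not overlap in either genotype. The log2 difference was -2.42 (SE 0.34, adjusted p = 0.000114) in WT and -4.01 (SE 0.85, adjusted p = 0.00529) in LC-/-, where the size rests on a library with 0 reads. The keratinocyte share of the mean KC value would give 8.88 to 10.7 in the WT DETC libraries and 8.11 to 12.3 in the LC-/- ones. The values read lay above it in WT replicates 1 and 3 and below it in the others.

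Tlr4, the receptor of lipopolysaccharide (chr4:66827584-66930284, plus strand), had 22 reads in the 11 libraries together. It stood between 0.864 and 5.57 normalized counts in KCs and between 0 and 2.21 in DETCs, with overlapping groups. Its cofactor Ly96 (MD-2) had more reads. Ly96 was lower in DETCs, by a log2 difference of -1.43 (adjusted p = 0.00133) in WT and -1.24 (adjusted p = 0.00282) in LC-/-.

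Among the endosomal receptors, Tlr3 encodes the receptor of double-stranded RNA (chr8:45395665-45411080, minus strand) and had the highest level of any receptor in KCs. It stood at 181, 168 and 194 normalized counts in WT KCs and at 129, 81.4 and 172 in LC-/- KCs. In DETCs it stood at 30.6, 26.4 and 49.6 in WT and at 38.8 and 19.9 in LC-/-. All KC libraries lay above all DETC libraries. The log2 difference between DETCs and KCs was -2.37 (SE 0.23, adjusted p = 1.01e-05) in WT and -2.09 (SE 0.40, adjusted p = 0.00358) in LC-/-. Without LC-/- DETC replicate 3 the LC-/- call was lost (-1.63, adjusted p = 0.0777). The keratinocyte share would give 28.5 to 34.5 normalized counts of Tlr3 in the WT DETC libraries and 21.9 to 33.1 in the LC-/- ones. The values read lay above it in WT replicates 1 and 3 and LC-/- replicate 2, and below it in the other libraries.

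Tlr7, the receptor of single-stranded RNA (chrX:167304929-167330558, minus strand), had 0 reads in 5 KC libraries and 1 read in LC-/- KC replicate 1. It stood at 27.3, 31.4 and 32.1 normalized counts in WT DETCs and at 34.0 and 47.5 in LC-/- DETCs. It was at least 10.8-fold higher in DETCs of WT mice. In LC-/- libraries the ratio rested on 78 reads against 1 and was 115, with a counting interval from 19.97 to 4583. Tlr9, the receptor of CpG DNA (chr9:106222598-106226883, plus strand), had 6 reads in all 11 libraries, of which 4 were in LC-/- DETC replicate 2, and no difference was detectable at this depth.

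Markers of other cells in the DETC gate were read beside Tlr1, Tlr6 and Tlr7. The 12 macrophage and monocyte markers summed to 243 to 274.9 normalized counts in WT KCs and 1018 to 1153 in WT DETCs, and to 231 to 279.5 and 844 to 1204 in the LC-/- libraries. Mertk (mean 219) and Cd68 (39.1) led the sum in WT KCs, and Ccr2 (654) and Cd68 (261) in WT DETCs. Ccr2 and Cd68 gave 85.1% of the mean sum in WT DETCs. In WT, 4 of the 5 tested were higher in DETCs, where 41.0% of all tested genes were, and Mertk was lower. Of the list, 4 had 0 reads in all WT DETC libraries (Fcgr1, C1qb, C1qc and Mrc1). The 17 LC markers summed to 14533 to 15831 in WT DETCs and 6638 to 7213 in WT KCs. In WT DETCs 76.8% of the sum was Il10ra (mean 6624) and Id2 (4889.9), and in WT KCs 93.9% was Epcam (6119) and Id2 (300.6), and none of these genes is particular to LCs. In LC-/- the 17 LC markers summed to 16068 to 17964 in DETCs and 9868 to 10494 in KCs. Il10ra (mean 8220) led this sum in DETCs and Epcam (9774) in KCs, and the LC markers called between genotypes are named below. The 8 mast cell markers summed to 6.15 to 13.0 in WT KCs and 363 to 598 in WT DETCs, nearly all of it Kit, with 6 of the 8 at 0 in WT DETCs. The 6 melanocyte markers summed to 42.7 to 85.6 in WT KCs and 7.43 to 26.3 in WT DETCs. Cd207 itself stood at 16.5 to 46.7 in WT DETCs and at 0 and 4.42 in LC-/- DETCs, whereas Tlr1 and Tlr7 were read in both at the levels above. The part of these cells in the Tlr1, Tlr6 and Tlr7 values was not tested.

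Both adaptors were read at higher levels in KCs. Myd88 (chr9:119335934-119341411, minus strand) stood at 1632, 1347 and 1391 normalized counts in WT KCs and at 1332, 1513 and 1528 in LC-/- KCs. In DETCs it stood at 716, 728 and 687 in WT and at 824 and 746 in LC-/-. The populations did not overlap. The log2 difference was -1.03 (SE 0.08, adjusted p = 2.68e-06) in WT and -0.89 (SE 0.10, adjusted p = 0.000291) in LC-/-. DETC libraries held 47.1% to 56.6% of the KC level of Myd88, above the keratinocyte share in each library. Single keratinocyte markers such as Cdh1 also lay above that share, and the source of the Myd88 reads was not tested. Exons of Myd88 overlap Acaa1a on the other strand, which had 5223 reads in all libraries against 12571 for Myd88, and whether counting used the strand is not given in the sources used here. Without it, reads in the overlap cannot be told apart. The 3 tested genes with the pattern most like Myd88 over the 11 libraries, by Pearson's r of the log2 values, were Pard6b (0.9949), Il6ra (0.9929) and Adcy6 (0.992), and these points share the split into KC and DETC libraries.

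Ticam1 (chr17:56269319-56276786, minus strand) stood at 355, 373 and 341 normalized counts in WT KCs and at 436, 488 and 469 in LC-/- KCs. In DETCs it stood at 160.4, 199 and 210.0 in WT and at 255 and 210.1 in LC-/-. The log2 difference between DETCs and KCs was -0.91 (SE 0.12, adjusted p = 8.03e-05) in WT and -1.0 (SE 0.13, adjusted p = 0.000523) in LC-/-. DETC libraries held 45.02% to 59.0% of the KC level, again above the keratinocyte share in each, and the source of these reads was not tested.

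**Figure D3:**
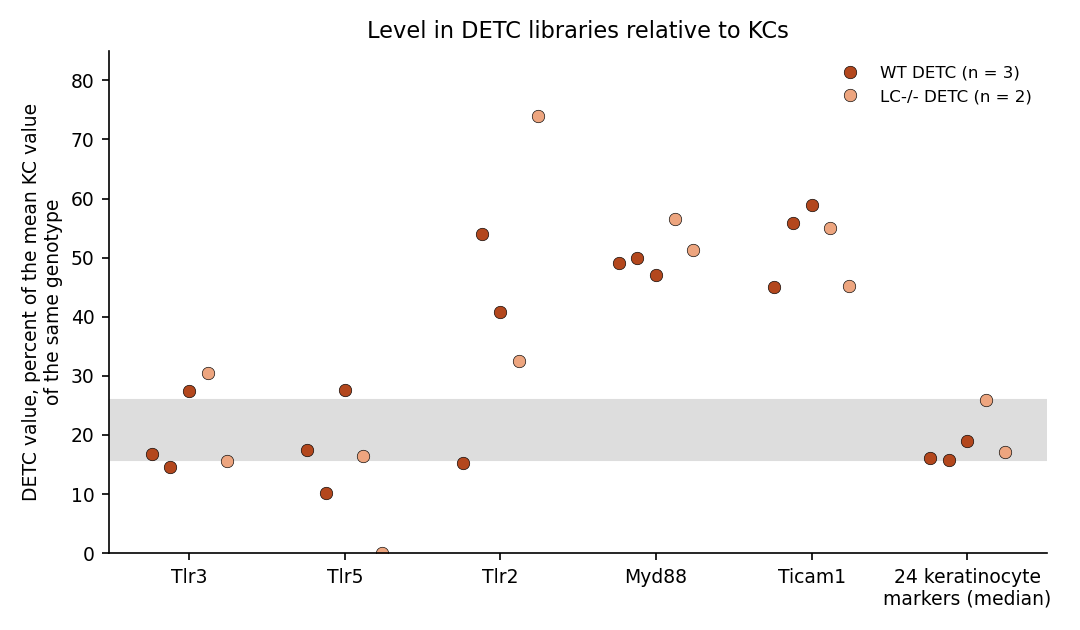
Value in each DETC library as a percent of the mean KC value of the same genotype, for the 5 genes that are higher in KCs of WT mice and for the median of 24 keratinocyte markers. The grey band spans the keratinocyte share of the 5 libraries, 15.8% to 25.9%. It is a range of medians, and single markers lie outside it. Tlr3 and Tlr5 scatter about the band, and Myd88 and Ticam1 lie above it in all 5. Tlr2 lies below it in WT replicate 1 (15.3%) and above it in the other libraries (32.5% to 73.9%).

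With the keratinocyte share subtracted from the DETC values, the genes called were as before, 7 in WT and 6 in LC-/-. Subtraction can only lower a DETC value, so it moves genes that are lower in DETCs further down. Tlr1 had no KC reads, and the share of Tlr7 was at most 0.0952 normalized counts, so both stayed nearly unchanged. The kept calls are therefore no test of the part of keratinocyte transcripts in them. The log2 difference of Tlr3 was then -5.74 in WT and -5.56 in LC-/-, that of Myd88 was -1.65 in WT, and that of Ticam1 was -1.80 in LC-/-. The Tlr3 sizes depend on libraries whose value lay below the share and which were left with no Tlr3. These were WT DETC replicate 2 (26.4 against 28.5 normalized counts) and LC-/- DETC replicate 3 (19.9 against 21.9).

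The 4 TLR genes outside the group were also looked up. Tlr8 and Tlr11 had 0 reads in every library. Tlr12 had 0 reads in KCs and in WT DETC replicate 1, and stood at 5.78 and 5.83 normalized counts in the other WT DETC libraries and at 2.91 and 4.42 in the LC-/- ones. Tlr13 had 0 reads in KCs and at most 3.32 normalized counts in a DETC library. None of the 4 passed the filter.

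Whether LC absence moved these genes was asked within each population. In KCs, 1 of the 7 tested genes was called higher in LC-/- (5.37% of all tested genes were) and 0 were called lower (1.85% of all tested genes were). The gene was Ticam1. All 3 LC-/- KC libraries (436, 488 and 469 normalized counts) lay above all 3 WT ones (355, 373 and 341). The means were 464 ± 25.9 (SD, n = 3) and 356 ± 15.8 (SD, n = 3), and the log2 difference was 0.38 (SE 0.06, 95% interval 0.22 to 0.54), a 1.30-fold rise with limma adjusted p = 0.0347. On the recovered reads edgeR gave an adjusted p of 0.0190 and DESeq2 0.0134. The call was lost without any 1 of the 6 libraries, where adjusted p was 0.0575 to 0.116 and the difference 0.34 to 0.42. It was also lost in 1 fit over all 11 libraries (adjusted p = 0.0717) and without a filter (adjusted p = 0.0661).

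The other KC values gave no call. Tlr3 was at 181 ± 13.3 normalized counts in WT and 128 ± 45.5 in LC-/- (SD, n = 3 each), a log2 difference of -0.57 (95% interval -1.28 to 0.15, adjusted p = 0.272), and LC-/- KC replicate 3 at 172 lay within the WT values. Tlr5 was at 56.4 ± 5.79 and 47.3 ± 8.12, a difference of -0.26 (-0.69 to 0.18, adjusted p = 0.398). Tlr2 differed by 0.24 (-0.91 to 1.40, adjusted p = 0.783). Myd88 had a mean of 1457 in both genotypes, and its difference was 0.00, with an interval from -0.24 to 0.25. Tlr1 and Tlr7 were at or under 1 read in every KC library, so no difference was detectable at this depth.

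In DETCs, 0 of the 7 genes were called with limma in either direction, where 3.13% of all tested genes were higher and 0.430% lower in LC-/-. At an unadjusted p under 0.05 the count was also 0, and it was 0 with edgeR and with DESeq2. Tlr7 stood at 30.2 ± 2.59 in WT (SD, n = 3) and at 34.0 and 47.5 in the LC-/- libraries, a log2 difference of 0.40 (-0.25 to 1.06, adjusted p = 0.494). Ticam1 differed by 0.30 (-0.10 to 0.69, adjusted p = 0.398) and Myd88 by 0.14 (-0.08 to 0.36, adjusted p = 0.462). For these 3 genes both LC-/- libraries lay above the 3 WT libraries, Ticam1 of LC-/- DETC replicate 3 by the smallest step (210.1 against 210.0). How many of all tested genes separate in this way was not counted. The keratinocyte share would give 120 and 79.7 normalized counts of Ticam1 in the LC-/- libraries and 56.1 to 67.8 in the WT ones. For Myd88 it would give 378 and 250 against 229 to 277. With the share subtracted, the log2 difference was 0.05 for Ticam1 and 0.03 for Myd88. Tlr1 differed by -0.41 (-1.26 to 0.45, adjusted p = 0.603), Tlr2 by 0.82 (-0.58 to 2.23, adjusted p = 0.515) and Tlr3 by -0.29 (-1.21 to 0.64, adjusted p = 0.753), all with overlapping libraries. Tlr5 had the widest interval, -1.85 (-3.97 to 0.27, adjusted p = 0.323), and its LC-/- libraries had 8 and 0 reads. With 2 LC-/- libraries these intervals leave room for changes in either direction.

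**Figure D4:**
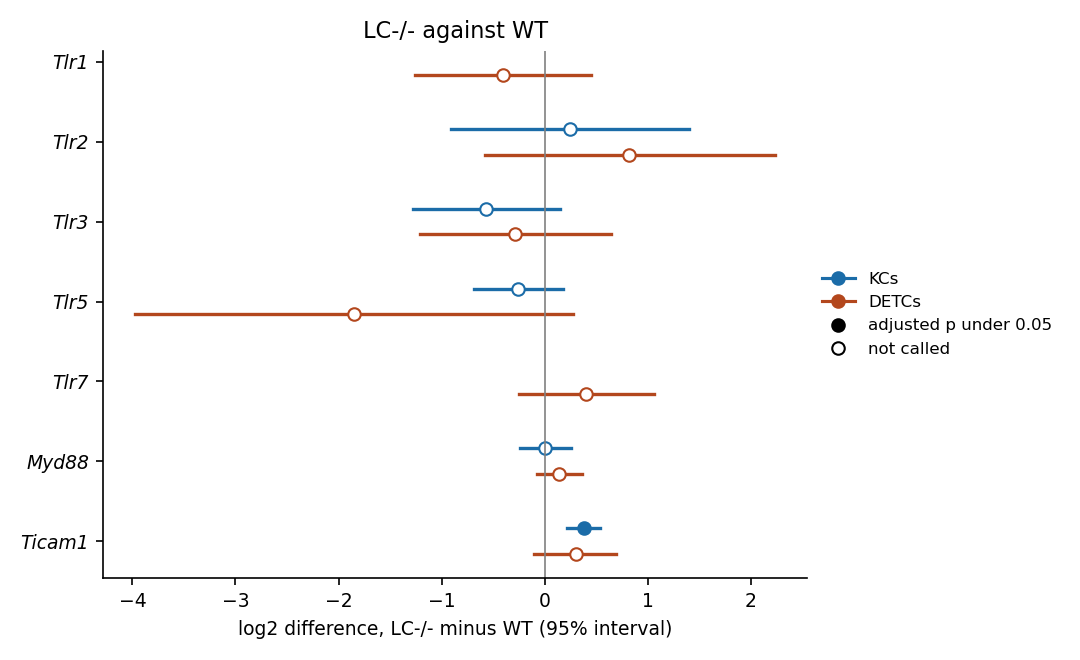
Log2 difference between LC-/- and WT for the 7 tested genes in KCs (blue) and DETCs (orange), with 95% intervals from limma. Tlr1 and Tlr7 are not drawn for KCs, where they had at most 1 read in a library. The interval of Ticam1 in KCs, 0.22 to 0.54, is the one filled point, and every other interval spans 0.

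The difference of the genotype change between DETCs and KCs was tested by an interaction term in 1 fit over all libraries. It was called for 0 of the 7 genes with limma, where 0.798% of all tested genes were called. At an unadjusted p under 0.05 the count was 0 as well, and it was 0 with edgeR and DESeq2. For Ticam1 the interaction was -0.08 (95% interval -0.48 to 0.31, adjusted p = 0.915), so its change in KCs was not shown to differ from that in DETCs. The largest was Tlr5 at -1.59 (-3.57 to 0.39, adjusted p = 0.575).

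The other genes of the pathway were taken from 7 lists with 86 genes, of which 71 were tested. In WT, 31 were higher in DETCs and 32 lower, where 41.0% and 35.1% of all tested genes were, and in LC-/- 32 were higher and 29 lower, where 38.1% and 32.1% were. The counts of each list between populations are to be read against these shares. Ctss, Pik3ap1, Sarm1, Inpp5d, Trim30a, Il18rap, Il1rl1 and Csf2, named below, had at most 8 reads in any KC library. They passed the filter through their DETC values, so their calls between populations follow in part from the filter. Their fitted log2 differences also depend on the pseudocount. The pathway genes had a median log2 difference of -0.05 and 0.02 against 0.07 and 0.08 over all tested genes. Of 12 co-receptors, chaperones and trafficking genes, 7 were tested, and 4 were higher and 2 lower in DETCs in both genotypes. Unc93b1, which carries the endosomal TLRs from the endoplasmic reticulum, was higher (60.3 to 64.8 normalized counts in WT KCs, 194 to 236 in WT DETCs, log2 difference 1.74, adjusted p = 2.1e-06). Cnpy3, a TLR chaperone, was higher by 1.47 and Ly96 lower by the value above. Of 5 endosomal proteases, which trim TLR7 and TLR9, 4 were tested, and Ctss was higher (4.10 to 5.57 in WT KCs, 383 to 499.8 in WT DETCs) whereas Lgmn (-1.90), Ctsl (-1.70) and Ctsb were lower in DETCs in both genotypes.

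Of 25 other adaptors, kinases and ligases, 24 were tested, and in WT 11 were higher and 7 lower in DETCs. Irak2, a kinase of the MyD88 complex, stood at 86.4 to 127 normalized counts in WT KCs and at 2772 to 3186 in WT DETCs, a log2 difference of 4.80 (SE 0.13). Pik3ap1, an adaptor between TLRs and PI3 kinase, had 1 read in the 3 WT KC libraries and 1896 in the WT DETC ones. Sarm1, a TIR-domain protein, was higher by 2.74. All 16 negative regulators were tested, and 9 were higher and 7 lower in WT DETCs. Inpp5d, a lipid phosphatase, was higher by 10.92, with 0 to 3.07 normalized counts in WT KCs and 3715 to 3953 in WT DETCs, and is also a gene of blood cells at large. Trim30a was higher by 7.69 and Sigirr, a decoy-like member of the IL-1 receptor family, by 4.16.

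IL-1 family receptors use MyD88 as TLRs do. All 7 were tested, and 3 were higher and 4 lower in DETCs in both genotypes. Il18rap (0 to 0.864 normalized counts in WT KCs, 765 to 1043 in WT DETCs), Il1rl1 (0 in WT KCs, 124 to 248.8 in WT DETCs) and Il18r1 (log2 difference 4.59) were higher, and these encode receptor chains for IL-18 and IL-33. Il1r1, Il1r2, Il1rap and Il1rl2 were lower. Of 18 genes known to respond to TLR ligands, 14 were tested, and 4 were higher and 9 lower in DETCs in both genotypes. Tnf (179 to 237 in WT KCs, 2579 to 2875 in WT DETCs) and Csf2 (log2 difference 5.82) were higher, and Il6 was lower by a log2 difference of -3.38.

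Between the genotypes 62 of the 71 genes were not called in KCs, and 67 were not called in DETCs. In KCs, 5 were higher and 4 lower in LC-/-, at shares of 5.37% and 1.85% among all tested genes. Tbk1, a kinase that acts after TRIF, rose by 0.50 on the log2 scale (516, 541 and 628 normalized counts in WT, 797, 759 and 815 in LC-/-, adjusted p = 0.0362). Traf6, the ligase shared by the MyD88 and TRIF branches, rose by 0.39 (1170.3, 1006 and 1088 in WT, 1389, 1393 and 1483 in LC-/-, adjusted p = 0.0371). Tab2, an adaptor of the TAK1 kinase, rose by 0.17, Tollip, an inhibitor of IL-1 and TLR signals, by 0.37, and Slc15a4, an endolysosomal transporter needed by TLR7 and TLR9, by 0.39. Tab1, another TAK1 partner, had a difference of -0.53 (146, 135 and 138 in WT, 85.9, 101 and 104 in LC-/-), and Tnf of -0.77 (179, 193 and 237 in WT, 122, 105 and 127 in LC-/-, adjusted p = 0.0426). With 1 of the 6 libraries left out in turn, 6 of these 7 calls were lost in every fit, and Tbk1 kept its call only without WT KC replicate 3. The highest adjusted p over all alternatives was between 0.106 and 0.574 for these genes, and their log2 differences kept their direction. They ranged from 0.44 to 0.58 for Tbk1, 0.30 to 0.44 for Traf6, 0.33 to 0.44 for Slc15a4, 0.17 to 0.40 for Tollip, 0.04 to 0.19 for Tab2, -0.58 to -0.40 for Tab1 and -0.86 to -0.65 for Tnf. The loss was general in KCs. Over all genes, 775 were called higher and 267 lower with all 6 libraries, but at most 10 higher and 9 lower without LC-/- replicate 1 or 3 or without WT replicate 1 or 2. Without WT replicate 3 the counts were 200 and 24, and without LC-/- replicate 2 they were 552 and 169.

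The other 2 lower calls in KCs were Ctss and Ptpn6. Ctss had 4 to 6 reads in each WT KC library and 0 in each LC-/- one, and was at least 1.47-fold higher in WT. Ptpn6, the phosphatase SHP-1, stood at 291, 290.3 and 269.7 normalized counts in WT KCs and at 189, 225 and 191 in LC-/- KCs (log2 difference -0.49, adjusted p = 0.0420). It was lower in LC-/- DETCs as well (5477, 4710.4 and 4845 in WT, 2995 and 2855 in LC-/-, -0.77, adjusted p = 0.0136). The Ctss call was lost without LC-/- KC replicate 1 (adjusted p = 0.0506), and its fitted difference of -2.49 ran from -5.27 to -0.66 over the alternatives. In KCs the Ptpn6 call was lost without any 1 library other than LC-/- replicate 2 (adjusted p up to 0.139), and in DETCs without LC-/- replicate 2 or WT replicate 3 (0.0685 and 0.0626). The DETC call was lost in 5 of 16 alternatives in all, with adjusted p up to 0.179 and a difference of -0.95 to -0.71. Of 12 tested LC markers, 3 were lower (Cd207, Cd74 and H2-Aa) and 1 higher (Epcam) in LC-/- KCs. In LC-/- DETCs 4 were lower (Cd74, H2-Aa, H2-Ab1 and H2-Eb1) and 2 higher (Ccr7 and Epcam). Cd207, Itgax, Ccr7 and Ltc4s had 0 reads in LC-/- KCs. In the WT KC libraries Cd207 had 6 to 29 reads, but Itgax had at most 2, Ccr7 at most 4 and Ltc4s 3. The part of LC transcripts in the Ctss and Ptpn6 values was not tested.

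In DETCs, 3 of the 71 genes were higher and 1, Ptpn6, lower in LC-/-, where 3.13% and 0.430% of all tested genes were. Peli1, a ligase of the IRAK complex, rose by 0.56 on the log2 scale (4901, 6012 and 5616 normalized counts in WT, 7817 and 8354 in LC-/-, adjusted p = 0.0368). Ripk1, a kinase that binds TRIF, rose by 0.49 (1409, 1584 and 1615 in WT, 2164 and 2157 in LC-/-, adjusted p = 0.0327). Ptgs2, the inducible cyclooxygenase, rose by 1.13 (1101, 872 and 1154 in WT, 2738 and 1879 in LC-/-, adjusted p = 0.0226). Its KC values were 6911 to 8636 in WT and 7816 to 13999 in LC-/-, and with the keratinocyte share subtracted it was at 0 in all DETC libraries. Peli1 and Ripk1 kept their direction with the share subtracted but were not called (adjusted p = 0.158 and 0.153). With 1 library left out, Peli1 and Ripk1 were called without WT replicate 1 and in no other such fit, and Ptgs2 without LC-/- replicate 3 and in no other.

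**Figure D5:**
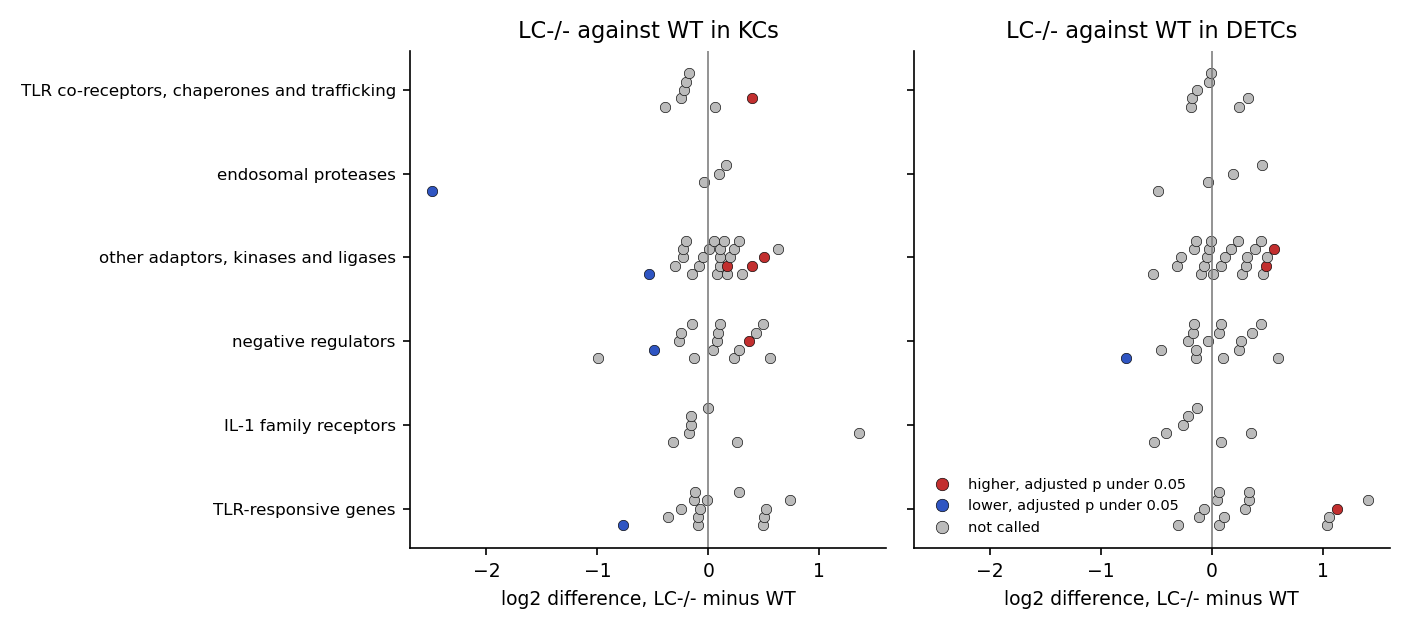
Log2 difference between LC-/- and WT in KCs (left) and DETCs (right) for the tested genes of 6 pathway lists, 1 point per gene. Called genes are coloured (9 in the left panel and 4 in the right), and the lone point near -2.49 in KCs is Ctss.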

How the data were processed

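The authors trimmed reads, aligned them to GRCm38, counted them per gene and divided each library's counts by a DESeq2 median-of-ratios size factor, and the deposited signal per gene is this normalized count. Every nonzero value was a whole number of reads within 0.01 when divided by its library's smallest step (100% of values), so reads were recovered, 13491075 to 19750440 per library. Genotype and population came from the labels. Replicate pairs differed beyond counting error (chi-square per degree of freedom 8.41 to 25.2), and intervals and floors on reads cover counting error only. The labels do not say for each library which animal it came from. The paper's legend for its principal component plot gives each point as a different animal. Whether a KC and a DETC library of the same number share an animal is not said, and p-values measure the spread between libraries.

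In R 4.3.3, log2(normalized count + 1) was tested by limma 3.58.1, with a trended eBayes prior and Benjamini-Hochberg adjustment, over 14419 genes with a CPM above 1 in at least 2 of 11 libraries, and a call is an adjusted p under 0.05. A fold change on this scale understates the change of low genes. edgeR 4.0.16 and DESeq2 1.42.0 on recovered reads were alternatives (edgeR called 410 genes higher and 73 lower in LC-/- DETCs). The keratinocyte share of a DETC library is the median over 24 markers of its value over the mean KC value of the same genotype. Genes were placed with GENCODE M21, matching 52403 of 52550 identifiers, and promoters came from RefSeq (GRCm38.p6). Pathway genes are named where called between genotypes, or as the up to 3 largest differences per list between WT DETCs and KCs, and others are counted. A few further genes of these lists (Ctsb and IL-1 receptor chains) were named after their values were seen. The members and lists were chosen with earlier results of these data known.

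KC and DETC libraries share numbers in their titles, which the labels do not explain, and the fits use no replicate block.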

Additional observations from a re-analysis of the deposited data

Results flagged for a closer look

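For 2 genes of the pathway lists the genotype change differed between DETCs and KCs by the interaction term of limma. For Ctss, an endosomal protease, the log2 change from WT to LC-/- was 2.01 higher in DETCs than in KCs (SE 0.37, 95% interval 1.20 to 2.83, adjusted p = 0.0299). It had 4 to 6 reads in each WT KC library, 0 in each LC-/- KC library, and 256 to 558 reads in the DETC libraries, so the KC change is a change near the limit of detection. The call was lost with 9 of the 11 libraries left out in turn, and kept without LC-/- DETC replicate 2 or LC-/- KC replicate 2. Over all 21 alternatives the value ran from 0.19 with a pseudocount of 8 to 4.82 with edgeR, adjusted p reached 0.856, and the call was lost in 14. For Tnf the change was 0.88 higher in DETCs (SE 0.18, 95% interval 0.48 to 1.27, adjusted p = 0.0492). Its KC values were 179 to 237 normalized counts in WT and 105 to 127 in LC-/-, and its DETC values were 2579 to 2875 in WT and 2638 and 3264 in LC-/-. The call was lost without any 1 of the 11 libraries, and in 16 of the 21 alternatives in all, with values of 0.58 to 1.03 and adjusted p up to 0.214. With the number that KC and DETC titles share as a replicate block, both calls were lost (adjusted p = 0.133 for Ctss and 0.0702 for Tnf).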

How the results depend on the processing

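The number of members called kept within 1.5 times its value in every alternative for DETCs, for the interaction and for both comparisons of populations. In KCs it fell from 1 to 0 in 1 fit over all 11 libraries, without a filter on low values, and without any 1 library (0 to 0). The cause was not tested. Without a filter Tlr2 lost its call in WT DETCs against KCs and Tlr5 in LC-/- ones, and quantile normalization added Tlr2 in LC-/-.

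Changes of sign were confined to values with no call. The Tlr7 interaction (0.05) was -0.71 with DESeq2, -1.58 with edgeR, -0.15 with a pseudocount of 0.5, and -0.19 to 0.40 with 1 library left out, where KC counts are 0 or 1 read. Myd88 in KCs was -0.10 with quantile normalization and -0.05 to 0.09 with 1 library left out. With 1 library left out, Tlr2 in KCs ranged from -0.07 to 0.67, Tlr3 in DETCs from -0.75 to 0.18, the Tlr3 interaction from -0.19 to 0.74 and the Ticam1 interaction from -0.22 to 0.06.

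For libraries of the same number, deviations from the group means correlated at -0.0534 (replicate 1), 0.0667 and 0.117 in WT and at 0.143 and 0.117 in LC-/-. Libraries of different numbers had correlations of -0.143 to 0.0609. With group means of 2 or 3 libraries, these values cannot decide whether the numbers pair them, and the fits were left unpaired. With the number as a replicate block, 7 members were called in WT, 6 in LC-/- and 0 in the interaction, as without it, and over all genes the interaction called 17 higher and 1 lower against 89 and 26.

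Over all genes, KC calls moved from 775 higher and 267 lower to 252 and 88 without a filter, 508 and 227 with an eBayes prior without trend, 1192 and 591 with edgeR and 1215 and 537 with DESeq2. DETC calls moved from 452 and 62 to 137 and 48, 0 and 0, 410 and 73, and 868 and 211 under the same settings (limma without trend had 1554 and 853 at an unadjusted p under 0.05), and with 1 library left out to between 29 and 478 higher and 0 and 112 lower. DESeq2 gave Ctss in KCs no adjusted p, so that fit was not counted for or against its call.

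Depth limits Tlr4, Tlr6 and Tlr9, which had 22, 35 and 6 reads in 11 libraries, and the 2 LC-/- DETC libraries limit every comparison of genotypes in DETCs.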
